A study of Mus musculus with 8 samples.

Results

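The 10 genes described here encode enzymes that make, activate or break down steroid hormones in mouse liver: Hsd3b2, Hsd3b3, Hsd3b4, Hsd3b5, Cyp17a1, Srd5a1, Hsd11b1, Hsd17b2, Akr1d1 and Akr1c6. Every non-control array probe that carried one of these names, in the files or through its transcript accession, was taken, which gave 14 probes of 41174 in all, and 10 of the 22217 genes with a measured probe. Of the genes, 7 had 1 probe, Hsd3b3 and Srd5a1 had 2 each, and Hsd3b2 had 3. All 14 were among the 33335 probes that passed the filter on signal over background.

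Liver RNA of ICR scid mice, an outbred stock with the immunodeficiency allele scid in every group, was hybridised to 8 two-colour Agilent arrays, and all mice were 8 weeks old. Each array set a pool of several mice against another pool, and each of 4 comparisons had 2 arrays, with different pools and with the dyes exchanged. Untreated males (pools of 5 and 5) were set against untreated females (5 and 5). Males given an adenovirus that carries the homeobox factor Cux2 (Adeno-Cux2) were set against males given the control adenovirus (Adeno-CMV) 3 days after treatment (5 and 6, against 5 and 6) and 5 days after it (6 and 6, against 6 and 7). Females given Adeno-Cux2 (4 and 4) were set against females given Adeno-CMV (4 and 3) at day 5. The labels state no restriction of the virus to a cell type. The stated purpose of the female arrays names male liver, while their title, source and sex labels give females.

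The liver is the main site where circulating steroids are reduced, oxidised and conjugated. Steroid dehydrogenases and reductases set how much active androgen, oestrogen and glucocorticoid a liver cell sees, since each step turns an active hormone into an inactive one or back. In rodents several of these genes are expressed at different levels in males and females because males release growth hormone in pulses and females more continuously, and Cux2 is a repressor that female mouse liver expresses. Liver is a mixture of cells, and in such bulk RNA fewer cells of a type and less RNA per cell cannot be told apart.

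Several library checks came before the results. The 9 hepatocyte markers measured, such as albumin, had a summed intensity of 710153 to 1692710 in the 16 pools. The brightest Cux2 probe was higher by 0.60 ± 0.09 (log2) in Adeno-Cux2 males at day 5 and by 0.49 ± 0.09 at day 3. It was lower, by −0.61 ± 0.09, in the female pools labelled Adeno-Cux2 than in those given Adeno-CMV. Its mean log2 level was low in Adeno-Cux2 males, 6.95 at day 5 and 6.92 at day 3, against 7.51 in untreated males and 9.39 in untreated females. Where the Cux2 probes lie relative to the viral insert was not examined, so these values do not show how much Cux2 the virus gave. S100a8, a neutrophil gene, was higher in the pools labelled Adeno-Cux2 in both sexes (1.86 ± 0.12 in females, 3.30 ± 0.12 in males at day 5). The female values are given as the pools are labelled. Ddx3y, on the Y chromosome, had log2 levels of 7.42 and 7.55 in the untreated female pools, while the treated female pools had 5.77 to 5.96. Xist, from the inactive X chromosome, had 5.97 and 9.16 in the pools of Adeno-CMV males at day 3, the second standing apart from the other male pools at 5.87 to 7.07. These pools stay in the values below, and values without the day 3 array that held the 9.16 pool are given where that comparison is described.

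The Hsd3b genes lie together on chromosome 3. On the mm8 build that the array annotation uses, the 7 probes of the 4 members span chr3:98584554-98888338, all on the minus strand, with Hsd3b4 at one end and Hsd3b3 at the other. The probe of Hsd3b5 is at chr3:98747986-98748045 and that of Hsd3b4 at chr3:98584554-98584613. Each is a 60-base stretch, and exons and untranslated regions of that build were not used here. The family holds close copies, and probe letters were not used here, so signal shared between Hsd3b members cannot be separated. Outside the cluster, the brighter Srd5a1 probe is at chr13:70040870-70040929, the Hsd11b1 probe at chr1:194922699-194922758, the Akr1d1 probe at chr6:37497021-37497080, the Akr1c6 probe at chr13:4456428-4456487 and the Hsd17b2 probe at chr8:120644585-120644644. The Cyp17a1 probe spans 614 bases of genome at chr19:46721415-46722028.

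Promoter windows of the Hsd3b genes are printed because these members moved together in males. Each window holds 250 bases before to 50 bases after the RefSeq start on GRCm38.p6, read 5′ to 3′ on the minus strand, and 8 of the 10 members matched, with 10 windows in all. Capitals mark the letters ATTGAT, which with ATCGAT were searched on both strands as core letters known for Cux and related factors, together with TTCNNNGAA, the letters known for STAT5. The windows are Hsd3b5 at chr3:98645485-98645784, Hsd3b4 (its first start) at chr3:98510518-98510817, and Hsd3b3 (its first start) at chr3:98763079-98763378.
Hsd3b5: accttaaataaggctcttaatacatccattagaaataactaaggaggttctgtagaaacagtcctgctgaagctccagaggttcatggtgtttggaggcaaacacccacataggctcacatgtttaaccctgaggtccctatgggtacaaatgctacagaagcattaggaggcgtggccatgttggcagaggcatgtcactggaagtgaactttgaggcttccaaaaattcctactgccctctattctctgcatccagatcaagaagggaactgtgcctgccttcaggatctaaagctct
Hsd3b4: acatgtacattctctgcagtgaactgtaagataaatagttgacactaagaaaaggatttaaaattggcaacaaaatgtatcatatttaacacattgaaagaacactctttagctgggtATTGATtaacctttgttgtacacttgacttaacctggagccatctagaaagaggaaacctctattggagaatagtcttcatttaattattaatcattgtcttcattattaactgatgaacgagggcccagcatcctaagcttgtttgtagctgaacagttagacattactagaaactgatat
Hsd3b3: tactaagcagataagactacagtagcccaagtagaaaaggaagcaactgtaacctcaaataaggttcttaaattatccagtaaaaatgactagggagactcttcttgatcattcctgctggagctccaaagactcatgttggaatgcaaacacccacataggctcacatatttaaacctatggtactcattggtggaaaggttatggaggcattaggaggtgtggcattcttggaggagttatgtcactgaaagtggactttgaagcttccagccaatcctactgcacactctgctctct
Over aligned bases, the Hsd3b3 and Hsd3b5 windows were 76.3% identical, against 50.9% to 67.2% for the 30 pairs of windows in which at least 1 gene was not an Hsd3b gene. The 13 pairs of windows of different Hsd3b genes ranged from 56.5% to 77.2%. Among the windows printed, Hsd3b3 and Hsd3b4 were 60.8% and Hsd3b4 and Hsd3b5 65.7% identical, inside the range of the other pairs. ATTGAT stood once in the Hsd3b4 window, starting 132 bases before the start, and in no window of the other 7 matched members, where 7.54% of 32851 mouse promoter windows of this length held it. Neither ATCGAT (0.925% of all windows) nor TTCNNNGAA (8.30%) was in any member's window, which says only that these letters are not in these stretches.

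The first comparison asked which of these enzymes differ between the sexes without treatment. Hsd3b5 and Hsd3b4 were the most male-biased members, Srd5a1, Hsd3b2 and Hsd3b3 were moderately higher in males, and Cyp17a1, Hsd11b1 and Akr1d1 were lower in males. A probe passed the test at a Benjamini-Hochberg adjusted p under 0.05 over all probes in limma. Errors after ± are standard errors of that fit, with n = 2 arrays in each comparison. The spread of a probe was estimated over all 8 arrays together, so a member probe has the same error in all 4 comparisons. It is not the spread of the 2 arrays of a comparison. Where levels are said not to overlap, 2 pools stand against 2, and the share of all probes without overlap was not counted. Of the 14 probes 7 were higher and 3 lower in untreated males, where 9.78% of all probes passed, 4.71% higher and 5.07% lower. The median over the 14 probes was 0.35 (log2), against −0.00215 over all probes.

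Hsd3b5 and Hsd3b4 are 3-ketosteroid reductases in mouse, which inactivate androgens rather than make them. Hsd3b5 had log2 levels of 16.83 and 16.63 in the untreated male pools, against 13.48 and 14.06 in the untreated female pools. The levels did not overlap, and the array log2 ratios of 3.35 and 2.57 gave 2.96 ± 0.22, or 7.77-fold higher in males (adjusted p = 0.000567). Hsd3b4 had levels of 15.23 and 15.14 in males, against 11.83 and 12.27 in females. It too did not overlap, and it was 8.81-fold higher in males (3.14 ± 0.18, adjusted p = 0.000242).

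Hsd3b2 and Hsd3b3 belong to the branch of the family that oxidises and isomerises precursor steroids. The brightest Hsd3b2 probe had levels of 14.75 and 14.96 in untreated males, against 14.32 and 14.14 in untreated females, a difference of 0.62 ± 0.11 (1.54-fold, adjusted p = 0.0179). Its other probes gave 0.57 ± 0.08 and 1.07 ± 0.12, so that all 3 passed in the same direction. The brighter Hsd3b3 probe had levels of 14.77 and 14.44 in males, against 14.21 and 14.03 in females, a difference of 0.49 ± 0.10 (1.40-fold, adjusted p = 0.0312). The dimmer Hsd3b3 probe, named in the files from a liver tumour cDNA, had levels of 6.62 to 7.04 and a ratio of 0.10 ± 0.12 (adjusted p = 0.660). That ratio ran from −0.19 to 0.39 over other processing steps and arrays left out. The dimmer probe did not repeat the call of the brighter one, and at so low a level it cannot show that the probes disagree.

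Srd5a1, the 5α-reductase that turns testosterone into dihydrotestosterone, had levels of 14.48 and 14.44 in untreated males, against 13.51 and 13.68 in untreated females. It was 1.82-fold higher in males (0.86 ± 0.10, adjusted p = 0.00410), and the levels did not overlap. Its second probe, named from an embryonic stem cell cDNA and near background at levels of 6.42 to 6.70, gave 0.22 ± 0.06 (adjusted p = 0.0844).

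Cyp17a1, the hydroxylase and lyase that commits steroids to the sex hormone branch and is best known from gonads, was low on the array. It had levels of 8.10 and 8.22 in untreated males, against 9.11 and 9.33 in untreated females, with no overlap. It was 2.09-fold lower in males (−1.06 ± 0.16, adjusted p = 0.00975). Hsd11b1, which regenerates active corticosterone, had levels of 16.44 and 16.31 in males, against 16.83 and 16.80 in females (−0.44 ± 0.08, adjusted p = 0.0184). Akr1d1, the 5β-reductase that also serves bile acid synthesis, had levels of 13.64 and 13.36 in males, against 14.06 and 13.71 in females (−0.38 ± 0.09, adjusted p = 0.0425), a small difference with no overlap. Akr1c6, a 17β-hydroxysteroid dehydrogenase that makes testosterone from androstenedione, gave array ratios of 0.11 and −0.41, on opposite sides of 0 (adjusted p = 0.217). Hsd17b2, which oxidises testosterone and oestradiol, gave 0.08 ± 0.06 (adjusted p = 0.476).

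Without the first array of this comparison 3 of the 14 probes passed, and without the second 6. Hsd3b5 and Hsd3b4 passed in both cases, while Hsd11b1, Akr1d1, Cyp17a1 and the brightest Hsd3b2 probe failed in both (adjusted p between 0.0611 and 0.280), and the brighter Hsd3b3 (adjusted p = 0.361) and Srd5a1 (adjusted p = 0.0582) probes failed without the first array.

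**Figure D1:**
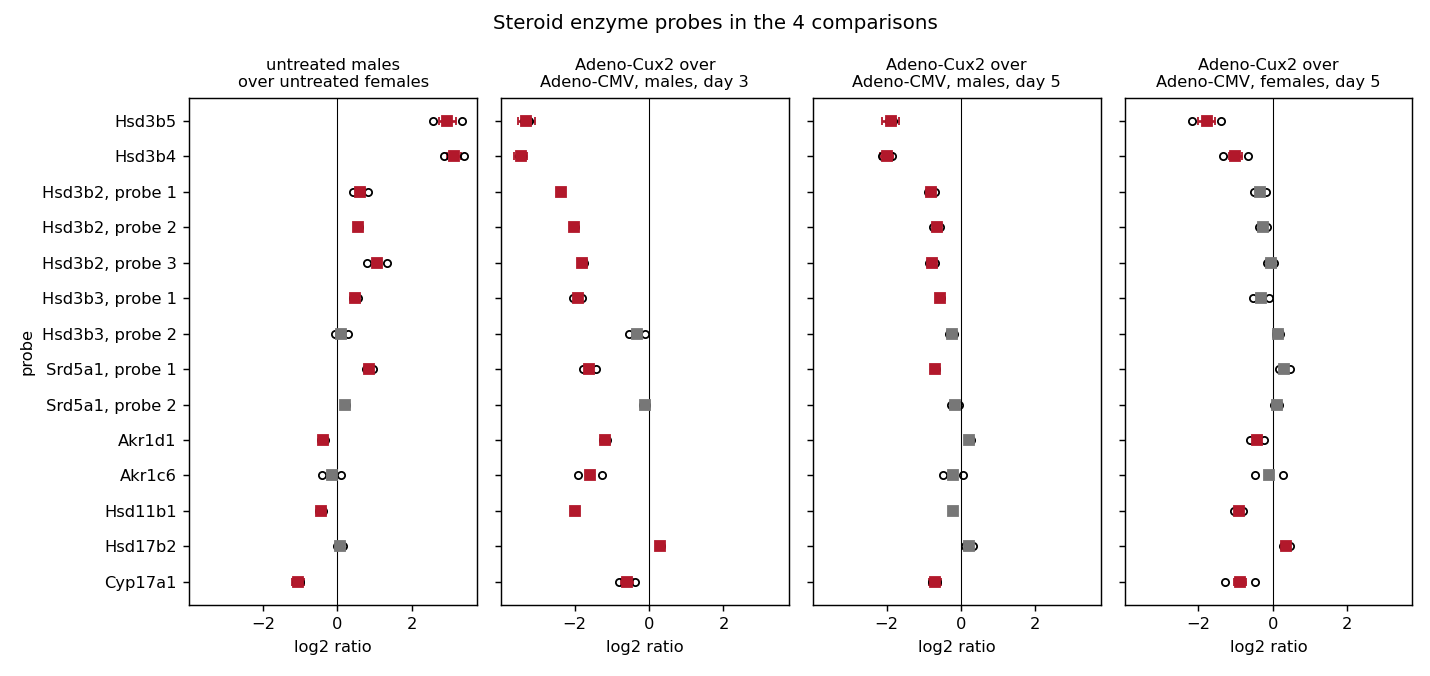
Log2 ratios of the 14 probes (rows) in the 4 comparisons (panels, common scale). Squares with bars are the fitted ratio ± standard error (red where it passed the test, grey otherwise) and open circles are the 2 arrays. Hsd3b5 and Hsd3b4 lie near 3 in untreated mice and near −3 in males at day 3.

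The next comparison asked how male liver differed between Adeno-Cux2 and Adeno-CMV 3 days after treatment. By the brightest probe 9 of the 10 genes fell, led by Hsd3b4 and Hsd3b5 and followed by Hsd3b2, Hsd11b1, Hsd3b3, Srd5a1, Akr1c6, Akr1d1 and Cyp17a1, while Hsd17b2 was slightly higher. Of the 14 probes 11 were lower and 1 higher in Adeno-Cux2 males, where 42.9% of all probes passed, 20.1% lower and 22.8% higher. The median over the 14 was −1.70, against −0.00114 over all probes.

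Hsd3b5 had levels of 12.94 and 12.43 in Adeno-Cux2 males at day 3, against 16.17 and 15.79 in Adeno-CMV males. The array ratios were −3.23 and −3.36 and the fall was 9.83-fold (−3.30 ± 0.22, adjusted p = 6.11e-05). Hsd3b4 had levels of 10.96 and 10.67 in Adeno-Cux2 males, against 14.45 and 14.09 in Adeno-CMV males (−3.45 ± 0.18, adjusted p = 2.57e-05). For both genes the groups were far apart, and each array gave nearly the same ratio.

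The brightest Hsd3b2 probe had levels of 12.38 and 12.14 in Adeno-Cux2 males at day 3, against 14.74 and 14.54 in Adeno-CMV males (−2.38 ± 0.11, 5.19-fold lower, adjusted p = 1.94e-05). Its other probes gave −2.02 ± 0.08 and −1.79 ± 0.12. The brighter Hsd3b3 probe had levels of 11.91 and 12.16 in Adeno-Cux2 males, against 13.97 and 13.96 in Adeno-CMV males (−1.92 ± 0.10, 3.80-fold lower, adjusted p = 2.86e-05), while the dimmer one gave −0.33 ± 0.12 (adjusted p = 0.0727). Srd5a1 had levels of 12.27 and 12.28 in Adeno-Cux2 males, against 14.05 and 13.72 in Adeno-CMV males (−1.61 ± 0.10, 3.05-fold lower, adjusted p = 5.26e-05). No pool of these 3 genes overlapped between the groups at the brighter probe. How many of all probes also lacked overlap was not counted, and 42.9% of all probes passed the test here.

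Hsd11b1, which differed little between the untreated sexes, had levels of 14.84 and 14.63 in Adeno-Cux2 males at day 3, against 16.84 and 16.62 in Adeno-CMV males (−2.0 ± 0.08, adjusted p = 1.54e-05). Akr1c6, with no sex difference past the test, had levels of 17.00 and 16.36 in Adeno-Cux2 males, against 18.27 and 18.28 in Adeno-CMV males. Its ratio was −1.60 ± 0.07 (3.02-fold lower, adjusted p = 1.67e-05), with arrays further apart than that error, at −1.27 and −1.92. Akr1d1 had levels of 11.67 and 11.68 in Adeno-Cux2 males, against 12.81 and 12.93 in Adeno-CMV males (−1.19 ± 0.09, 2.29-fold lower, adjusted p = 8.95e-05). The fall thus took in members called higher and members called lower in untreated males, and Akr1c6, which was not called there. The calls lower in untreated males (Cyp17a1, Hsd11b1 and Akr1d1) failed with either untreated array left out. They also failed on the software's own log ratios (adjusted p = 0.0523, 0.077 and 0.127 in limma).

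Cyp17a1 had levels of 7.71 and 7.81 in Adeno-Cux2 males at day 3, against 8.51 and 8.20 in Adeno-CMV males (−0.60 ± 0.16, adjusted p = 0.0212). Hsd17b2 had levels of 15.42 and 15.45 in Adeno-Cux2 males, against 15.09 and 15.20 in Adeno-CMV males (0.29 ± 0.06, 1.22-fold higher, adjusted p = 0.00850). Without the array whose Adeno-CMV pool had the Xist level of 9.16, 11 probes passed, Hsd3b5 gave −3.21 and Hsd3b4 −3.42, Cyp17a1 (adjusted p = 0.103) and Hsd17b2 (adjusted p = 0.148) no longer passed, and the dimmer Hsd3b3 probe did, at −0.57 (adjusted p = 0.0498). Without the other day 3 array 10 probes passed, and Cyp17a1 (adjusted p = 0.226) and Hsd17b2 (adjusted p = 0.0532) again failed.

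At day 5 the fold changes in males were smaller for the Hsd3b genes and Srd5a1, and not for Cyp17a1. The same 4 Hsd3b genes, Srd5a1 and Cyp17a1 were lower in Adeno-Cux2 males, and no member was higher. Of the 14 probes 8 were lower, where 16.8% of all probes passed, 4.78% lower and 12.0% higher. The median over the 14 was −0.60, against 0.00253 over all probes.

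Hsd3b5 had levels of 13.89 and 13.73 in Adeno-Cux2 males at day 5, against 15.83 and 15.57 in Adeno-CMV males (−1.89 ± 0.22, 3.71-fold lower, adjusted p = 0.00162). Hsd3b4 had 12.09 and 12.13 in Adeno-Cux2 males, against 14.21 and 13.99 in Adeno-CMV males (−1.99 ± 0.18, 3.97-fold lower, adjusted p = 0.000478). The groups did not overlap for either gene.

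Hsd3b2 gave −0.79 ± 0.11, −0.65 ± 0.08 and −0.78 ± 0.12 on its 3 probes, the brighter Hsd3b3 probe −0.56 ± 0.10 (adjusted p = 0.0110), and the brighter Srd5a1 probe −0.68 ± 0.10 (adjusted p = 0.00505). Srd5a1 had levels of 13.23 and 13.40 in Adeno-Cux2 males, against 13.95 and 14.06 in Adeno-CMV males. Cyp17a1 had levels of 8.39 and 8.42 in Adeno-Cux2 males, against 9.02 and 9.20 in Adeno-CMV males (−0.70 ± 0.16, 1.63-fold lower, adjusted p = 0.0253). The other members did not pass: Hsd11b1 gave −0.22 ± 0.08 (adjusted p = 0.112), Akr1c6 −0.21 ± 0.07 (adjusted p = 0.0899), Akr1d1 0.23 ± 0.09 (adjusted p = 0.140) and Hsd17b2 0.22 ± 0.06 (adjusted p = 0.0599). Without its first array 3 probes passed in this comparison and without its second 2. Hsd3b4 passed in both cases, Hsd3b5 failed without the first array (adjusted p = 0.0595), Hsd3b2 failed on all 3 probes without the second (0.116 at the brightest), and Hsd3b3, Srd5a1 and Cyp17a1 failed in both (adjusted p between 0.0913 and 0.448).

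Set against day 3, the log2 ratio at day 5 was higher for 10 of the 14 probes (a smaller fall, or for Akr1d1 a value above 0) by a contrast in the same fit, where 12.1% of all probes passed, 7.25% in that direction and 4.81% in the other. The difference (day 5 minus day 3, log2) was 1.78 ± 0.11 for Hsd11b1 (adjusted p = 0.00127), 1.39 ± 0.10 for Akr1c6 (adjusted p = 0.00170) and 1.42 ± 0.13 for Akr1d1 (adjusted p = 0.00283). It was 1.58 ± 0.16 for the brightest Hsd3b2 probe, 1.37 ± 0.14 for Hsd3b3, 1.47 ± 0.25 for Hsd3b4, 1.40 ± 0.31 for Hsd3b5 (adjusted p = 0.0333) and 0.92 ± 0.15 for Srd5a1. Cyp17a1 (−0.10, 95% interval −0.64 to 0.43) and Hsd17b2 (−0.08, −0.29 to 0.13) did not pass. The arrays of the 2 times were on different slides, so time and slide cannot be told apart here. Without one of the 4 arrays of these groups, 4 to 7 of the 14 probes passed: 5 and 4 without the first and second day 5 arrays, 6 and 7 without the first and second day 3 arrays, and the contrasts of Hsd3b5 and Hsd3b4 failed in all 4 cases (adjusted p between 0.0708 and 0.216).

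**Figure D2:**
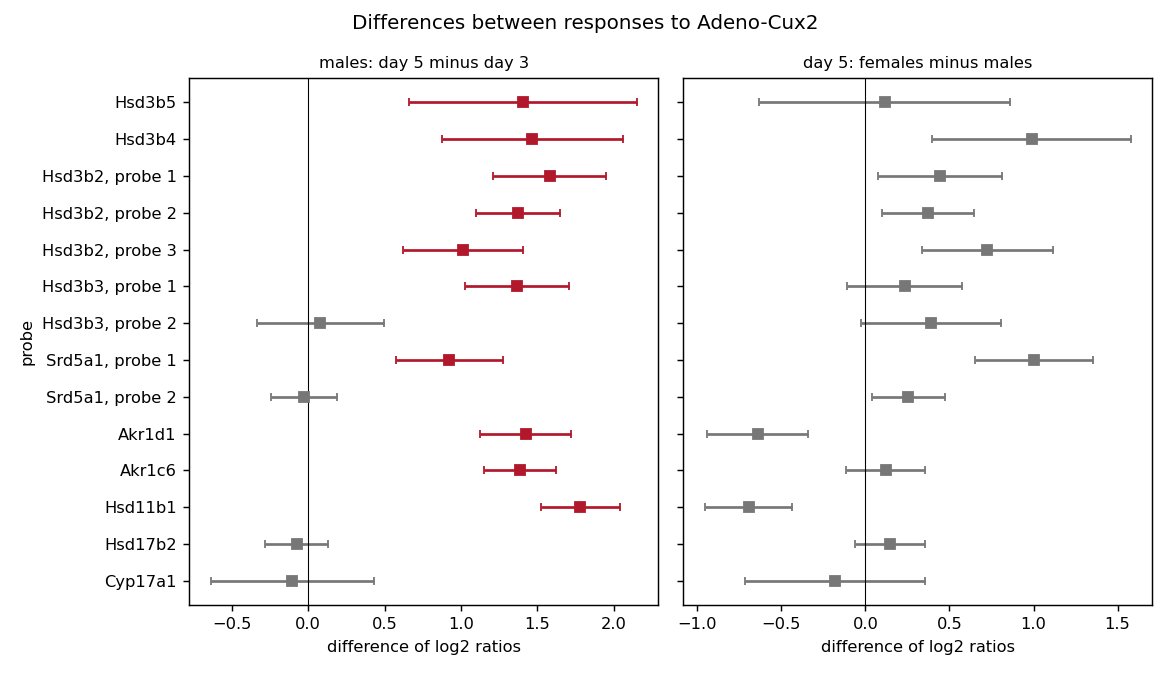
Differences between responses to Adeno-Cux2 (log2, squares) with 95% intervals, for males at day 5 minus day 3 (left) and day 5 females minus males (right). Red marks those that passed. The left panel has 10 red probes, all above 0, and the right has none.

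In females at day 5 the pools labelled Adeno-Cux2 were lower for Hsd3b5, Hsd3b4, Hsd11b1, Cyp17a1 and Akr1d1, and higher for Hsd17b2. Of the 14 probes 5 were lower and 1 higher, where 17.4% of all probes passed, 6.2% lower and 11.2% higher. The median over the 14 was −0.30, against −0.00189 over all probes.

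Hsd3b5 had levels of 8.30 and 8.24 in females given Adeno-Cux2, against 10.48 and 9.62 in females given Adeno-CMV. The groups did not overlap, and the array ratios of −2.18 and −1.38 gave −1.78 ± 0.22 (3.43-fold lower, adjusted p = 0.00271). Hsd3b4 had levels of 7.56 and 7.67 in females given Adeno-Cux2, against 8.90 and 8.34 in females given Adeno-CMV (−1.0 ± 0.18, adjusted p = 0.0100). These levels were low on the array. With no background subtracted the Hsd3b4 ratio was −0.52 and did not pass (adjusted p = 0.114). Hsd11b1 had levels of 15.42 and 15.67 in females given Adeno-Cux2, against 16.46 and 16.45 in females given Adeno-CMV (−0.91 ± 0.08, 1.88-fold lower, adjusted p = 0.000674).

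Cyp17a1 had levels of 8.30 and 9.75 in females given Adeno-Cux2, against 9.58 and 10.24 in females given Adeno-CMV. These ranges overlapped although both array ratios, −1.28 and −0.48, were below 0 (−0.88 ± 0.16, adjusted p = 0.0109). Akr1d1 gave −0.60 and −0.22 on the arrays (−0.41 ± 0.09, adjusted p = 0.0219). Hsd17b2 was 1.29-fold higher, with levels of 15.29 and 15.18 in females given Adeno-Cux2, against 14.84 and 14.91 in females given Adeno-CMV (0.36 ± 0.06, adjusted p = 0.00904).

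The brightest Hsd3b2 probe (−0.35 ± 0.11, adjusted p = 0.0745), the brighter Hsd3b3 probe (−0.32 ± 0.10, adjusted p = 0.0758) and Akr1c6 (−0.09 ± 0.07, adjusted p = 0.446) did not pass in females. Srd5a1 had levels of 12.90 and 13.14 in females given Adeno-Cux2, against 12.74 and 12.66 in females given Adeno-CMV, a ratio of 0.32 ± 0.10 above 0 that did not pass (adjusted p = 0.0860). Its dimmer probe was not well above background in females given Adeno-CMV on either array and in females given Adeno-Cux2 was so on 1 of 2. Without the first female array 2 of the 14 probes passed, and Hsd3b4 (−0.63, adjusted p = 0.167), Cyp17a1 (−0.51, adjusted p = 0.166), Akr1d1 (−0.23, adjusted p = 0.354) and Hsd17b2 (0.35, adjusted p = 0.143) failed. Without the second 5 passed and Hsd17b2 failed (0.38, adjusted p = 0.0892).

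Whether females and males differed in response at day 5 was tested as a contrast, which also crosses the slides. None of the 14 probes passed in limma, where 0.201% of all probes did (0.054% higher in females, 0.147% lower), and 8 of the 14 had an unadjusted p under 0.05, as did 10.1% of all probes. The lowest adjusted p was that of Srd5a1, which was above 0 in females and below 0 in males (females minus males, 1.00 ± 0.15, 95% interval 0.65 to 1.35, adjusted p = 0.0630). The difference was −0.70 ± 0.11 for Hsd11b1 (adjusted p = 0.0789), −0.64 ± 0.13 for Akr1d1 (adjusted p = 0.123), 0.99 ± 0.25 for Hsd3b4 (adjusted p = 0.207) and 0.11 ± 0.31 for Hsd3b5 (−0.63 to 0.86, adjusted p = 0.966). With either untreated array left out Srd5a1 passed (adjusted p = 0.0415), as it did with a dye term for each slide (adjusted p = 0.0448).

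**Figure D3:**
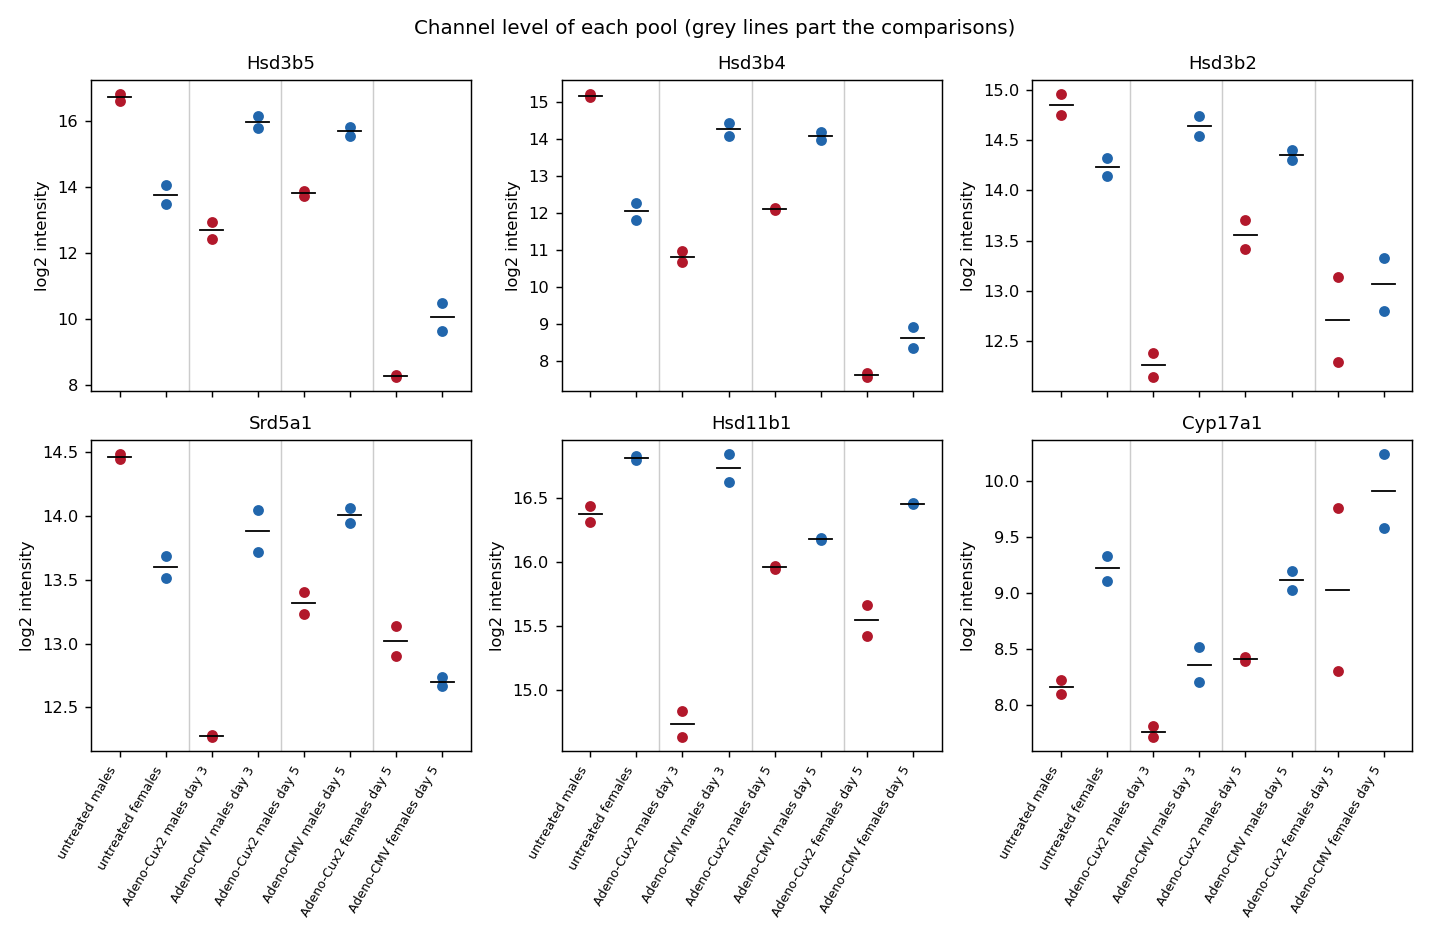
Log2 intensity of each pool (points, 2 per group) and group mean (line) for the brightest probe of 6 members. Each array was normalized by loess, and average intensity was then quantile scaled between arrays. Red marks untreated males and Adeno-Cux2 pools, blue untreated females and Adeno-CMV pools, and grey lines part the 4 comparisons. Hsd3b5 runs between 8.24 and 16.83.

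The mean level of Hsd3b5 over the groups ran, from high to low, through untreated males (16.73), Adeno-CMV males at day 3 (15.98), Adeno-CMV males at day 5 (15.70), Adeno-Cux2 males at day 5 (13.81), untreated females (13.77), Adeno-Cux2 males at day 3 (12.68), Adeno-CMV females (10.05) and Adeno-Cux2 females (8.27). Neighbours in that order overlapped in 2 places, between the Adeno-CMV males of day 3 and day 5 and between Adeno-Cux2 males of day 5 and untreated females. Hsd3b4 followed the same order, between 15.19 in untreated males and 7.62 in Adeno-Cux2 females, with overlaps at the same 2 places. Levels between comparisons come from different arrays and in part different slides, and no test was made of them.

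Taken by the brightest probe of each gene, 5 members were higher in untreated males (Hsd3b2, Hsd3b3, Hsd3b4, Hsd3b5 and Srd5a1). All were lower in Adeno-Cux2 males at day 3 and at day 5. Hsd3b4 and Hsd3b5 were also lower in the female pools labelled Adeno-Cux2, in which Cux2 was lower. As given above, some of these calls were lost with an array left out, those of Hsd3b3 and Srd5a1 at day 5 with either array. Over all probes 20.1% were lower at day 3, 4.78% in males at day 5 and 6.2% in those female pools. Cyp17a1, Hsd11b1 and Akr1d1 were called lower in untreated males, calls that failed with either untreated array left out. None of these 3 was higher past the test in an Adeno-Cux2 comparison. All 3 were lower in Adeno-Cux2 males at day 3 and in those female pools. Cyp17a1 alone of them was lower at day 5 in males, where Akr1d1 gave 0.23 ± 0.09 (adjusted p = 0.140). The root mean square difference of log2 ratios over the 8 arrays was smallest between Hsd3b2 and Hsd3b3 (0.314), then Hsd3b3 and Srd5a1 (0.411) and Hsd3b4 and Hsd3b5 (0.420). By the same measure over 11500 genes, the named genes nearest to Hsd3b5 were Elovl3 (0.495), a fatty acid elongase, Cyp7b1 (0.598), an oxysterol and steroid hydroxylase, Adgrv1 (0.610) and Aox3 (0.761), an aldehyde oxidase. The genes nearest to Srd5a1 were Plcxd2 (0.273), Adgrf1 (0.286), Slc22a30 (0.312) and Olfm3 (0.331). A transcript known in the files only by a cluster number was nearer still to Hsd3b5, at 0.376, and an unnamed cDNA stood between Adgrf1 and Slc22a30 for Srd5a1, at 0.300.

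Other genes of steroid metabolism were followed as lists. Among other steroid dehydrogenases and reductases 24 of 27 genes were measured. Beside the counts below, 4.71% of all probes were higher and 5.07% lower in untreated males. In the Adeno-Cux2 comparisons these shares were 22.8% and 20.1% at day 3, 12.0% and 4.78% in males at day 5 and 11.2% and 6.2% in females. In untreated males 4 were higher and none lower, namely Hsd17b3 (0.53 ± 0.08), which makes testosterone in testis, Hsd3b6 (0.37 ± 0.08), Akr1c13 (0.33 ± 0.07) and Akr1c21 (0.31 ± 0.07). In Adeno-Cux2 males at day 3, 16 were lower and 2 higher, with a list median of −0.47 against −0.00114 over all probes. Hsd3b6, a further gene of the family, gave −1.84 ± 0.08, Hsd17b6 −1.38 ± 0.13 and Akr1c14, a 3α-hydroxysteroid dehydrogenase, −1.09 ± 0.07, while Hsdl2 was higher by 0.82 ± 0.07.

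Akr1c18, the 20α-hydroxysteroid dehydrogenase that inactivates progesterone, was the gene of this list that was higher in all 3 Adeno-Cux2 comparisons. It was higher by 1.70 ± 0.21 in Adeno-Cux2 males at day 3 (arrays 1.22 and 2.17, adjusted p = 0.000810), by 1.81 ± 0.21 at day 5 (2.01 and 1.62, adjusted p = 0.00161) and by 2.36 ± 0.21 in females given Adeno-Cux2 (2.53 and 2.20, adjusted p = 0.000798). In untreated mice it gave −0.49 ± 0.21 and did not pass. At day 5, 6 of the 24 were lower and 1, Akr1c18, higher in Adeno-Cux2 males, and 6 lower and 1 higher in females given Adeno-Cux2, with falls of 0.26 to 0.58. Leaving out 1 array of the comparison took the lower calls to 11 and 10 at day 3, to 1 and 1 in males at day 5 and to 0 and 2 in females, and the higher calls in untreated males to 0 and 7. Without the first array of male day 5 Akr1c18 no longer passed in that comparison.

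**Figure D4:**
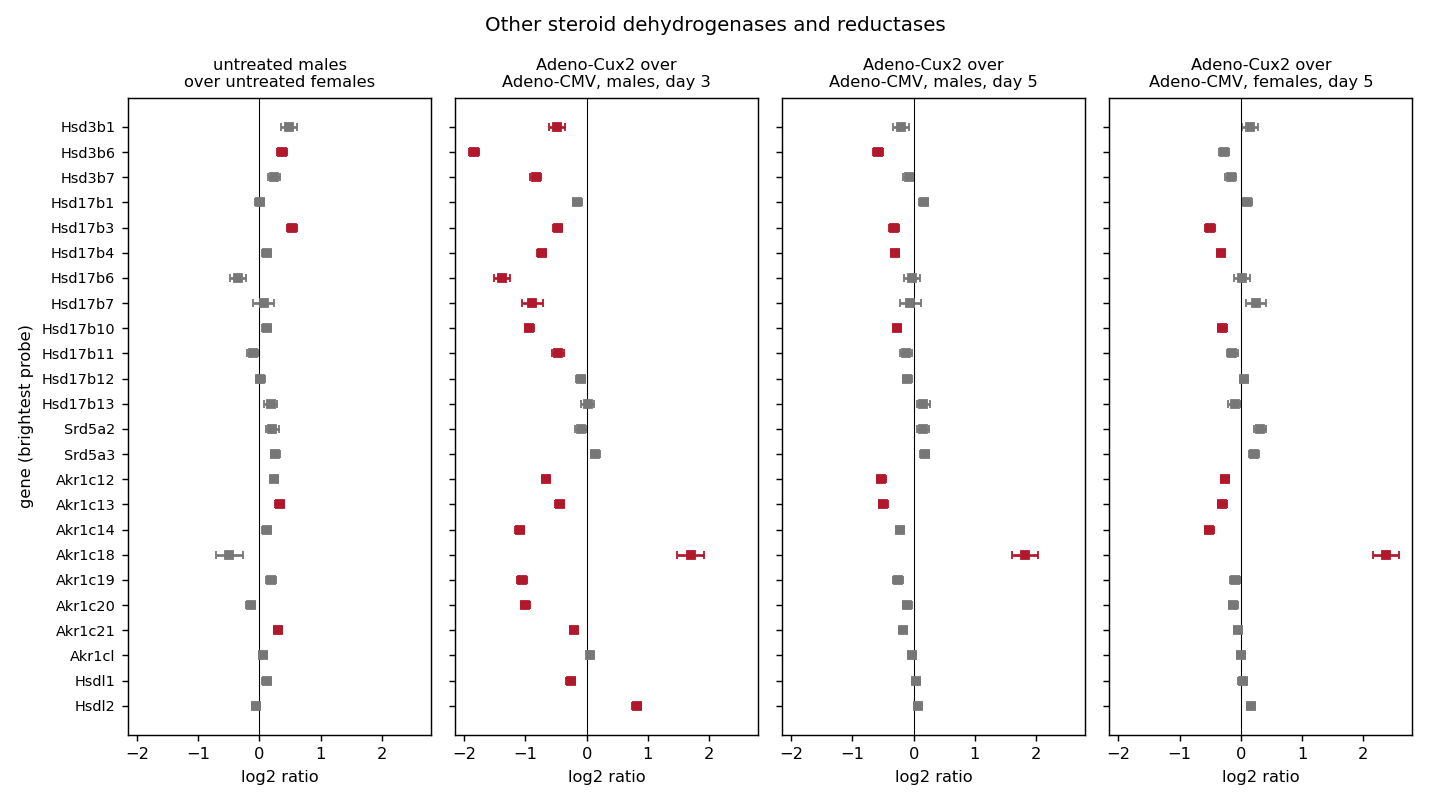
Log2 ratios ± standard error of the brightest probe of 24 other steroid dehydrogenases and reductases in the 4 comparisons (panels, common scale, red where the test was passed). Akr1c18 is the one gene far above 0 in all 3 Adeno-Cux2 panels.

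Of 11 steroidogenic cytochromes, cholesterol carriers and redox partners measured, 2 were higher and 1 lower in untreated males, 2 higher and 4 lower in Adeno-Cux2 males at day 3, 2 higher at day 5 and 1 higher in females given Adeno-Cux2. Over all probes the share higher and the share lower were 4.71% and 5.07% in untreated males, 22.8% and 20.1% at day 3, 12.0% and 4.78% at day 5 in males and 11.2% and 6.2% in females. Por, the reductase that feeds electrons to Cyp17a1 and other microsomal cytochromes, gave −1.21 ± 0.12 in untreated males and was higher by 0.58 ± 0.12, 0.72 ± 0.12 and 0.56 ± 0.12 in Adeno-Cux2 males at day 3, at day 5 and in females. H6pd, which supplies the cofactor of Hsd11b1 in the endoplasmic reticulum, was higher by 0.62 ± 0.10 in untreated males and gave −0.54 ± 0.10 in Adeno-Cux2 males at day 3. Without the first or the second array of the comparison, the higher calls became 0 and 1 in untreated males, 1 and 0 at day 3, 0 and 1 at day 5 and 0 and 0 in females, and the lower calls at day 3 became 1 and 4.

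Among 5 genes of conjugation and plasma transport, Serpina6, the corticosteroid-binding globulin, gave −0.90 ± 0.14 in untreated males and was higher by 0.62 ± 0.14, 1.98 ± 0.14 and 1.40 ± 0.14 in Adeno-Cux2 males at day 3, at day 5 and in females. Sult1e1, the oestrogen sulfotransferase, gave −0.76 ± 0.09 in untreated males and was higher by 0.95 ± 0.09, 0.77 ± 0.09 and 1.09 ± 0.09 in the same 3 groups. The shares over all probes given for the cytochromes apply here too. In this list 1 gene was higher and 2 lower in untreated males, 3 higher at day 3, 2 higher at day 5 and 2 higher in females. Leaving out the first or the second array made this 2 and 1 at day 3 and 1 and 2 at day 5, and none was then higher in untreated males, where 1 and 2 were lower. Without the second array 1 gene was also lower at day 3. Among steroid receptors, Esr1, an oestrogen receptor, was lower in untreated males (−1.11 ± 0.09), and Nr3c1, the glucocorticoid receptor, was lower in Adeno-Cux2 males at day 3 (−0.26 ± 0.07). Nr3c1 did not pass with either array of that comparison left out.

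Markers of cell types were counted in the same way. Over all probes 4.71% were higher and 5.07% lower in untreated males. The shares were 22.8% and 20.1% at day 3, 12.0% and 4.78% at day 5 in males and 11.2% and 6.2% in females. No test of a marker list against these shares was made. Counts in this paragraph are followed, in brackets, by those without the first and without the second array of the comparison. Of 6 neutrophil markers, 3 of which were lower in untreated males [0, 2], 5 were higher in the Adeno-Cux2 pools in each of the 3 comparisons [5, 5], and their summed intensity was 17331 and 20157 in Adeno-Cux2 males at day 3, against 5435 and 7967 in Adeno-CMV males. It was 51592 and 55068 in Adeno-Cux2 males at day 5, against 5796 and 7306 in Adeno-CMV males, and 84297 and 106659 in females given Adeno-Cux2, against 25943 and 29731 in females given Adeno-CMV. Of 7 macrophage markers 3 were higher [2, 3] and 3 lower [2, 2] at day 3, 6 higher at day 5 in males [4, 5] and 5 higher in females [5, 5]. Of 9 hepatocyte markers 2 were higher [1, 1] and 3 lower [1, 1] at day 3, 4 were higher at day 5 in males [1, 1] and 5 in females [4, 2], with none lower at day 5 in either sex. Of 5 markers of hepatocytes near the central vein 3 were lower in untreated males [2, 4] and 4 at day 3 [3, 3]. At day 5, 2 of them, Oat (1.07 ± 0.08) and Cyp1a2 (1.34 ± 0.22), were higher in Adeno-Cux2 males [1, 2], and in females 2 were higher [1, 0] and 2 lower [1, 1]. Of 4 markers of hepatocytes near the portal vein 3 were lower at day 3 [1, 3], and Ass1 was higher by 0.48 ± 0.12 in Adeno-Cux2 males at day 5, a call lost without either array. Of 6 stellate cell markers 3 were higher [3, 3] and 1 lower [0, 0] at day 3, 5 were higher at day 5 in males [1, 1] and 5 in females [3, 4]. Of 5 bile duct markers 3 were higher at day 3 [3, 3], 3 at day 5 in males [1, 1] and 5 in females [3, 3]. Of 5 endothelial markers 1 was higher in each [0, 0], with 2 lower at day 3 [0, 0]. Of 5 skeletal muscle markers 4 were lower in the female pools labelled Adeno-Cux2 [5, 3], with sums of 557 and 939 there, against 1887 and 11082 in females given Adeno-CMV. The part of these cells in the enzyme values was not tested. Among hepatocyte markers called higher, some had arrays on opposite sides of 0. These were Ahsg (1.75 and −0.05) and Fgb (0.77 and −0.25) at day 3. At day 5 they were Alb (1.58 and −0.16) and Fgb (0.78 and −0.02) in males, and Alb (1.25 and −0.02) and Fgb (0.89 and −0.29) in females. The other hepatocyte markers called higher had both arrays above 0. Of 6 markers of adrenal cortex and gonad only Insl3 passed in any comparison (higher by 0.20 to 0.32 in Adeno-Cux2 pools). That call was lost in all 3 comparisons without either array. The summed intensity of the 6 markers stayed between 942 and 1210 in the 16 pools.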

How the data were processed

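The deposited intensity values give a median brightness per spot and a median local background, in red and in green, per the file headers, with no normalization. The deposited LogRatio is a log10 ratio of red over green that the software had background-subtracted and dye-normalized, per the file headers, and the authors' value table holds the same log10 ratios turned 1 way. Flags are deposited scores of 0 or 1, per the file headers. Images were read with Feature Extraction 9.5.3.1 (untreated and male day 5 arrays, slide 1) or 10.7.1.1 (the others, slide 2).

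Background was subtracted by normexp with offset 50 and each array normalized by loess in limma 3.58.1 (R 4.3.3). Spots of a probe were averaged. Levels are log2 intensities after quantile scaling of average intensity between arrays. A probe stayed in when the software had marked it well above background, in either channel, on both arrays of any 1 comparison. One fit held 4 comparisons and a dye term, with 3 residual degrees of freedom, 2-sided, adjusted by Benjamini and Hochberg over 33335 probes. With 2 arrays of pooled mice in each comparison, array number limits precision. Errors come from 1 spread between pools for each probe, estimated over all 8 arrays after the dye term. The brightest probe stood for a gene in the lists. The fit was tested on simulated data. Members, lists and motifs were chosen with earlier results of these data known, and all members are named. Alternatives were other background steps, normalizations, filters and dye terms, the software's ratios and each array left out. One receptor result is not reported here.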

Additional observations from a re-analysis of the deposited data

Results flagged for a closer look

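The response of males at day 5 differed from that at day 3 by a contrast in limma for 10 of the 14 probes. All had the higher log2 ratio at day 5. Over all probes 12.1% passed this contrast, 7.25% in that direction and 4.81% in the other. The differences of log2 ratios were 1.78 for Hsd11b1, 1.58, 1.37 and 1.01 for the 3 Hsd3b2 probes, 1.47 for Hsd3b4, 1.42 for Akr1d1, 1.40 for Hsd3b5, 1.39 for Akr1c6, 1.37 for the brighter Hsd3b3 probe and 0.92 for the brighter Srd5a1 probe. As given above, fewer probes passed with an array of these groups left out, and Hsd3b5 and Hsd3b4 then failed whichever array it was. The 2 times lie on different slides, so time and slide cannot be told apart.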

How the results depend on the processing

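No value changed direction past the test under any alternative, but many values could not have done so. Leaving out an array of another comparison left a log2 ratio as it was. The LogRatio column and the authors' value table hold the same ratios. Of 1628 values of single probes, passed or not, 1483 kept their direction and side of the threshold and 106 no longer passed. A further 25 passed newly, and 14 that had not passed changed sign. The count of probes that passed in untreated mice was 10, and it was 6 where no background was subtracted, 5 on the LogRatio column, 5 on the authors' value table and 3 to 10 with an array left out. The day 5 males had 8 and 2 to 8 with an array left out, the day 5 females 6 and 2 to 8, and the day 3 males 12 and 10 to 13. The day 5 contrast of females and males had 0, 1 with a dye term for each slide, and 0 to 1 with an array left out. The contrast of day 5 and day 3 had 10, 6 on the LogRatio column, 6 on the authors' value table and 4 to 10 with an array left out. Because replicate 1 always had its first-named pool in red, the dye term is also a replicate block. With no replicate block the counts were 9, 8, 6, 12, 0 and 10 in the same order of comparisons, and the loss was Akr1d1 in untreated mice (adjusted p = 0.0503). The same numbers did not deviate together throughout (Pearson r across probes −0.07 to 0.30), so they were not taken to pair the pools. The near-background Srd5a1 probe passed only where background was handled otherwise, at 0.95, −0.69, −0.66 and 1.28 on the LogRatio column in untreated mice, males at day 5, males at day 3 and females. Causes of these shifts were not tested.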
